A study of Mus musculus with 2 samples.

Results

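The digestive enzyme genes of the pancreatic acinar cell were followed through single cells of mouse pancreatic tumours. There were 10 of them among the 32285 genes of the count tables: Prss2, Try4, Try5, Ctrb1, Cela1, Cela2a, Cela3b, Cpa1, Pnlip and Clps, chosen by symbol. All 10 symbols were found in both tables. KPC cells, a mouse pancreatic cancer line, had been implanted orthotopically in Porcn fl/fl littermates, the control group, and in Csf1r-Cre;Porcn fl/fl mice, the knockout group, and the tumours were collected on day 21. All mice of both groups carried the floxed Porcn alleles, and Csf1r-Cre deletes them in cells that use the Csf1r promoter, chiefly macrophages and other myeloid cells. The tumours of 5 mice were pooled into 1 library per group, dissociated with collagenase V and DNase, freed of red cells and enriched for live cells. With 1 library per group there was no replicate, so no test between the groups was possible. Every interval in parentheses is an exact 95% interval that covers counting error only, and the spread between mice is unknown.

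Acinar cells fill the exocrine pancreas and make its digestive enzymes in very large amounts. They store proteases as inactive zymogens in granules and release them into the ducts, where they flow to the gut. Trypsinogens, once activated to trypsin, activate chymotrypsinogen, proelastases and procarboxypeptidases. Pancreatic lipase splits dietary triglycerides and needs colipase to bind fat droplets coated with bile salts. Because acinar cells break easily during dissociation, their messenger RNA is a well-known source of free RNA in droplet libraries of pancreas, where it is captured together with intact cells of other types.

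The control table held 173934025 unique molecular identifiers (UMIs, each marking 1 captured transcript end) over 13766 barcodes, and the knockout one held 137527647 over 12251. After filtering, 11516 control and 10467 knockout cells were kept, with median depths of 12167.5 and 10109 UMIs. The 2 libraries shared 46 barcode sequences. For Porcn, the targeted gene, the monocyte/macrophage-like class held 8 UMIs in 501 control cells, or 3.49 per 1000000 UMIs of the class (CPM; 1.51 to 6.89), and 4 in 549 knockout cells, or 1.43 CPM (0.390 to 3.67). Reads of the 3′ end can lie outside the deleted stretch, so these counts do not check the deletion. The cells of the clusters scoring highest for tumour or acinar markers, called tumour cells here, numbered 9487 in control and 6098 in knockout. They were rich in Hmga2, found in 80.1% and 85.2% of them, but poor in the epithelial marker Epcam, found in 1.01% and 1.13%. These 4 shares leave out the cells with 1000 or more enzyme UMIs. They take in cluster 23, described below, which differed from the whole. There Epcam was found in 88.4% and 92.5% of cells and Hmga2 in 32.6% and 20.8%.

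The label was checked against acinar markers that are not among the 10 genes. No cluster could be named acinar. Cluster 23, with 44 control and 64 knockout cells, scored highest for acinar markers, but its leading genes included Epcam, Cldn3, Ttr and Dcdc2a beside the enzymes, and it was left unnamed. When the enzyme genes were also used for clustering, a cluster of 35 control and 300 knockout cells was named acinar. Enzyme RNA was therefore described by cell class and by count per cell, without assuming which cells had made it.

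Enzyme RNA was a far larger part of the knockout library, and a few cells held nearly all of it. The 10 genes had 10013 UMIs in kept control cells and 174990 in kept knockout cells, which is 0.00593% and 0.135% of all their UMIs. In tumour cells the sum was 9588 UMIs, or 63.6 CPM (62.3 to 64.9), in control and 166456 UMIs, or 1612 CPM (1605 to 1620), in knockout, a ratio of 25.4 (24.8 to 25.9). Only 2 control and 12 knockout cells, of all classes, had 1000 or more of these UMIs. Those cells carried 55.6% of the control and 91.7% of the knockout enzyme UMIs. None of their barcodes was shared between the libraries. Without them the control level in tumour cells was 26.7 CPM (25.9 to 27.5) and the knockout level 103.8 CPM (101.9 to 105.8), a ratio of 3.89 (3.75 to 4.03). The ratio over all tumour cells was thus set mainly by 2 control and 11 knockout cells, the remaining knockout cell being in a fibroblast-like cluster.

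Most other cells had none or a handful of enzyme UMIs. Of the control tumour cells 7594 had 0, 1776 had 1 to 4, 98 had 5 to 19, 16 had 20 to 99 and 1 had 113. Of the knockout tumour cells 2882 had 0, 2725 had 1 to 4, 427 had 5 to 19, 50 had 20 to 99 and 3 had 100 or more, up to 363. The bins and the limit of 1000 UMIs were chosen after the counts had been seen. In control no tumour cell lay between 113 UMIs and the 2354 of the smaller of the 2 high cells. In knockout none lay between 363 and 2072.

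**Figure D1:**
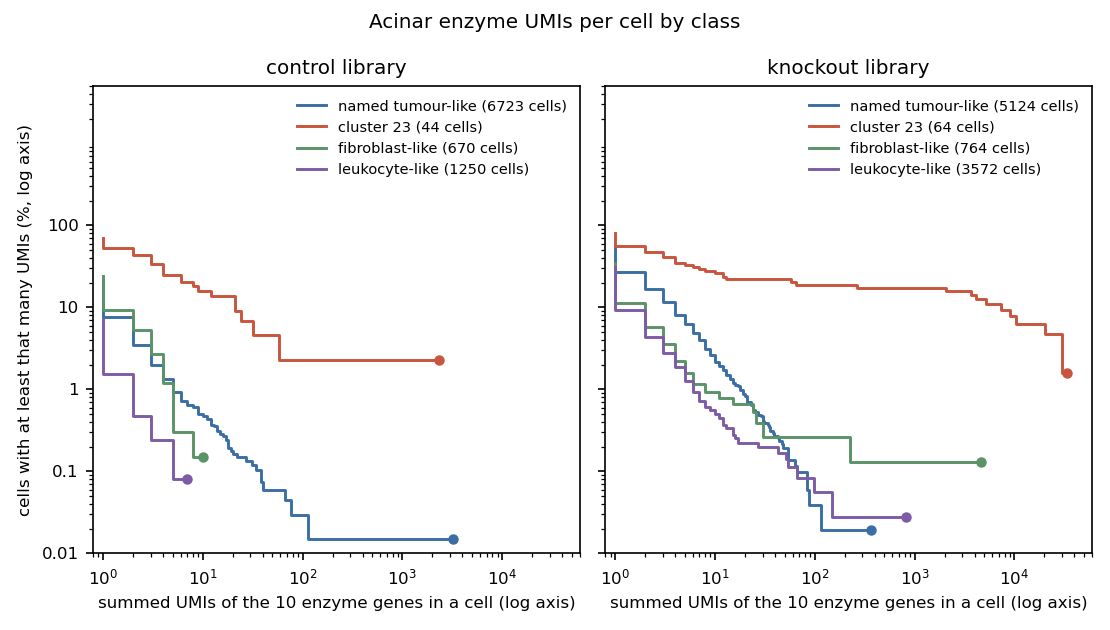
Percent of cells (vertical axis, log scale) with at least a given number of summed UMIs of the 10 enzyme genes (horizontal axis, log scale), by class, in the control (left) and knockout (right) library; the dot ends each line at its highest cell. The leukocyte-like line ends at 7 UMIs in control and at 821 in knockout, while the line of cluster 23 reaches 33653 in knockout.

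The trypsinogens came first by role, and their near identity sets a limit on how they can be told apart. Prss2 (ENSMUSG00000057163, chr6:41521787-41525079, plus strand, GRCm38), Try4 (ENSMUSG00000054106, chr6:41302269-41305532, plus strand) and Try5 (ENSMUSG00000036938, chr6:41311233-41316841, minus strand) each encode a trypsinogen with a coding length of 741 bases. Try4 and Try5 were identical at 722 of these bases (97.4%), Prss2 and Try4 at 679 (91.6%), and Prss2 and Try5 at 669 (90.3%). The last 60 coding bases are printed because 3′ reads fall near them. They come from the GENCODE M21 transcripts, with capitals at the 9 positions that differ among the 3 genes.
Prss2: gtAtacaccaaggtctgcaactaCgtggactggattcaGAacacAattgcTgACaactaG
Try4: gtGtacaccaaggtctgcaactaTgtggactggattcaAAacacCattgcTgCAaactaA
Try5: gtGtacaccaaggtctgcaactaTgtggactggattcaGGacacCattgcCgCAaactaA
The annotated transcripts end 57 bases after the stop codon in Prss2 and 44 bases after it in Try4 and Try5. How the authors' counting treated reads that match more than 1 copy is not given in the sources used here, so the split among trypsinogens is uncertain.

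In tumour cells Prss2 had 1074 control and 23186 knockout UMIs, Try4 had 764 and 13155, and Try5 had 1758 and 12456. Among the tumour cells under 1000 enzyme UMIs, Prss2 was left with 166 and 1130 UMIs, or 1.10 and 11.0 CPM, a ratio of 9.98 (8.48 to 11.8). Try4 was left with 125 and 853 UMIs, a ratio of 10.0 (8.29 to 12.2). These 2 trypsinogens thus kept a knockout excess of about the same size outside the richest cells. Try5 was left with 782 and 1204 UMIs, or 5.19 and 11.7 CPM, a ratio of 2.26 (2.06 to 2.47). Few cells carried much of this: 26 control and 36 knockout cells with 5 or more Try5 UMIs held 65.6% and 43.3% of it. Try5 differed from its near-identical neighbour Try4 in how much of its control RNA lay outside the cells with 1000 or more UMIs: these cells held 82.2% of the control Try4 UMIs and 55.0% of the control Try5 UMIs.

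Ctrb1 (ENSMUSG00000031957, chr8:111686519-111691010, minus strand), which encodes chymotrypsinogen B, had the most UMIs of the 10 in knockout tumour cells, 56789, against 1436 in control. Under 1000 enzyme UMIs it had 271 and 2040, or 1.80 and 19.8 CPM, a ratio of 11.0 (9.72 to 12.6). No length correction was applied to any gene, since each UMI marks 1 transcript whatever its length. Cpa1 (ENSMUSG00000054446, chr6:30639218-30645363, plus strand), which encodes carboxypeptidase A, had the fewest UMIs in both libraries, 154 and 4883. Under 1000 it had 34 and 380, a ratio of 16.4 (11.5 to 24.0).

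The 3 elastase genes did not share a pattern. Cela2a (ENSMUSG00000058579, chr4:141814962-141826160, minus strand) had 695 control and 10931 knockout UMIs in tumour cells, and 82 and 573 under 1000, a ratio of 10.2 (8.12 to 13.1). Cela3b (ENSMUSG00000023433, chr4:137420999-137430540, minus strand) had 222 and 9431, and 70 and 565 under 1000, a ratio of 11.8 (9.22 to 15.4). Both followed the bulk of the enzymes. Cela1 (ENSMUSG00000023031, chr15:100674421-100687921, minus strand) had 2322 and 10435 UMIs in tumour cells, and 2065 and 1842 under 1000, or 13.7 and 17.9 CPM, a ratio of 1.31 (1.23 to 1.39). It was the one gene of the 10 that did not pass 2-fold there. In control only 9.84% of its UMIs in kept cells lay in cells with 1000 or more enzyme UMIs, against 55.0% to 87.2% for the other 9 genes.

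Of the fat-digesting pair, Pnlip (ENSMUSG00000046008, chr19:58652498-58681788, plus strand), pancreatic lipase, had 204 control and 9289 knockout UMIs in tumour cells, and 71 and 755 under 1000, a ratio of 15.6 (12.2 to 20.2). Clps (ENSMUSG00000024225, chr17:28558149-28560766, minus strand), its colipase, had 959 and 15901, and 359 and 1329 under 1000, a ratio of 5.43 (4.83 to 6.12). In tumour cells all 10 genes were at least 2-fold higher in knockout, where 5.17% of 17491 genes were, and their log2 ratios ran from 2.71 for Cela1 to 6.05 for Pnlip, with a median of 4.81. None was at least 2-fold lower, where 2.66% of all genes were. Under 1000 enzyme UMIs 9 of 10 were, against 4.79% of 17449 genes, none was 2-fold lower, against 2.69%, and the median log2 ratio was 3.33. The median over all genes was -0.06 in both sets.

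Knockout cells of other classes also held more of these transcripts. Leukocyte-like cells, which are not known to make pancreatic enzymes, had 123 enzyme UMIs in 1250 control cells, or 18.1 CPM (15.04 to 21.6), and 3159 in 3572 knockout cells, or 173 CPM (167 to 179), a ratio of 9.57 (7.99 to 11.5). All 10 genes were at least 2-fold higher there, against 8.65% of 14628 genes. Prss2 had 18 and 453 UMIs, Ctrb1 11 and 737, and Pnlip 6 and 333. Cpa1 had 0 control and 133 knockout UMIs, 16.5-fold higher against a floor of 3 control counts, with a lower bound of 13.2 by the exact interval. Cela1 had 46 and 331, a ratio of 2.68 (1.96 to 3.73), the smallest of the 10 here as well.

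In T-like cells the sum was 25 UMIs in 192 control and 1093 in 1643 knockout cells, a CPM ratio of 4.41, and 7 of 10 genes passed 2-fold, against 4.1% of all genes tested, and none was 2-fold lower, against 6.07%. In monocyte/macrophage-like cells it was 43 in 501 and 533 in 549, a ratio of 10.2, 10 of 10 were 2-fold higher, against 2.61%, and none lower, against 3.01%. In fibroblast-like cells under 1000 enzyme UMIs it was 294 in 670 and 745 in 763, a ratio of 3.42. There 9 of 10 genes were at least 2-fold higher, against 8.15%, and Cela1 was the exception at 239 control and 85 knockout UMIs, a ratio of 0.480 (0.370 to 0.617). Genes at least 2-fold lower there made up 6.49% of those tested. The enzyme excess of the knockout library was thus seen in tumour, immune and fibroblast-like cells. Among the 10 genes in these 5 sets, Cela1 in fibroblast-like cells under 1000 was the one past 2-fold in the other direction.

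A handful of leukocyte-like cells weighed heavily on these sums. Knockout NK-like cells had 901 UMIs in 227 cells, 3.97 per cell, of which 821 lay in 1 cell, and 0.354 per cell without it. Leaving out cells with 20 or more, a limit set after the counts had been seen, took neutrophil-like cells from 1.05 to 0.514 per cell (1 cell left out), monocyte/macrophage-like cells from 0.971 to 0.654 (2 cells), T-like cells from 0.665 to 0.536 (4 cells), and all leukocyte-like cells from 0.884 to 0.519 (8 cells). B-like cells, at 0.341 per cell, and plasma-like cells, at 0.717, had no such cell. No control leukocyte-like cell had 20 or more, and their mean was 0.0984 per cell. The knockout leukocyte level thus stood above the control level with or without these cells.

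**Figure D2:**
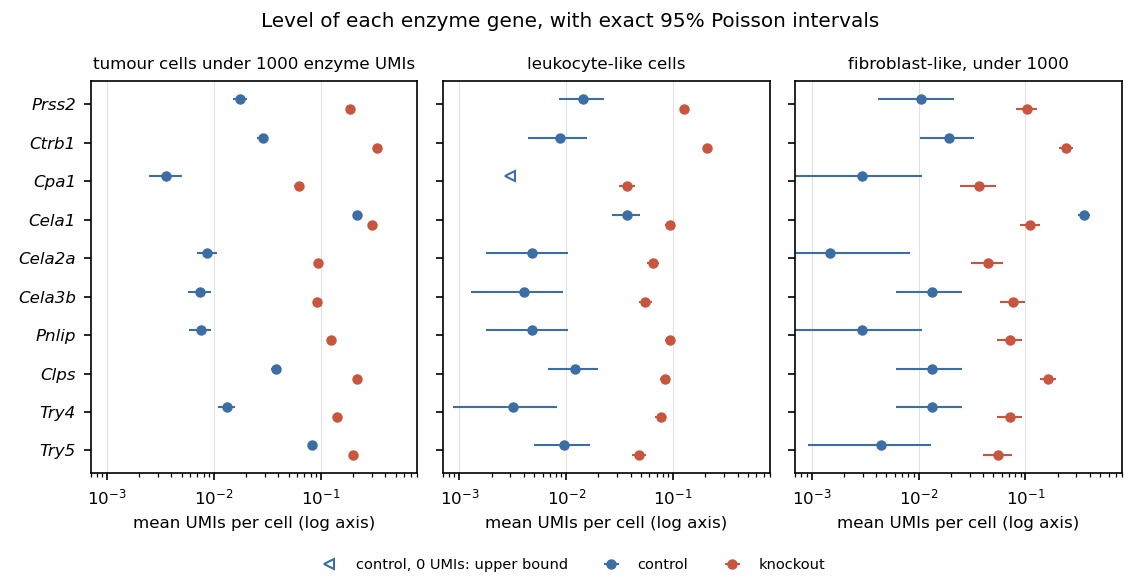
Mean UMIs per cell of each enzyme gene (horizontal axis, log scale) in tumour cells under 1000 enzyme UMIs, leukocyte-like cells and fibroblast-like cells under 1000, in control (blue) and knockout (red), with exact 95% Poisson intervals; an open arrowhead is the upper bound where 0 UMIs were counted. Knockout lies above control for 9 of 10 genes in the fibroblast-like panel, and Cela1 is the exception at 85 against 239 UMIs in cell numbers of 763 and 670.

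The share of cells with any enzyme UMI was set against the share in leukocyte-like cells at equal depth, because tumour cells were much deeper. Before thinning, 19.95% of control tumour cells and 7.20% of control leukocyte-like cells had an enzyme UMI, at median depths of 13289 and 2740. In knockout these were 52.7% and 30.9%, at 14792.5 and 3466.5. After each cell was thinned to 1000 UMIs the control shares were 2.32% of tumour cells (2.03 to 2.64) and 2.40% of leukocyte-like cells (1.61 to 3.43). The knockout shares were 9.47% (8.74 to 10.2) and 12.5% (11.4 to 13.6). Thinning left out 49 and 34 tumour cells and 42 and 59 leukocyte-like cells. At this depth the tumour share was not above the leukocyte share in either library. At 500 and 2000 UMIs the control order was the other way, with 1.20% of tumour and 0.800% of leukocyte-like cells at 500 and 4.33% and 3.13% at 2000, while in knockout the tumour share stayed the lower one. Fibroblast-like cells stood at 1.81% and 7.64%, T-like cells at 3.28% and 12.5%, monocyte/macrophage-like cells at 1.23% and 16.5%, neutrophil-like cells at 2.53% and 18.3%, and plasma-like cells at 0.709% and 6.56%. Knockout B-like cells stood at 8.41%. Cluster 23 stood at 34.1% and 34.4%, and without the cells of 1000 or more enzyme UMIs at 32.6% (19.1 to 48.5) and 18.9% (9.44 to 32.0), the knockout value then being close to that of neutrophil-like cells.

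Free RNA enters a droplet whatever the cell's own RNA content, so levels per cell were compared as well. A tumour cell was called high-count when it had more enzyme UMIs than the 99th percentile of leukocyte-like cells of its library, which was 2 in control and 6 in knockout. By this rule 293 of 9487 control tumour cells (3.09%; 2.75 to 3.46) and 292 of 6098 knockout tumour cells (4.79%; 4.27 to 5.35) were high-count. The median high-count cell had 4 UMIs in control and 10 in knockout. High-count cells were also deeper, at medians of 21534 and 18970 UMIs against 13073.5 and 14619 in the others, and the part of depth in the call was not tested. With a stricter percentile of leukocyte-like cells as the limit the order turned, to 0.896% in control and 0.344% in knockout.

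Levels per cell also depended on which cells were set against each other. Tumour cells under 1000 enzyme UMIs had 4.31 times (3.60 to 5.203) the enzyme UMIs per cell of leukocyte-like cells in control and 1.98 times (1.90 to 2.06) in knockout. In knockout this ratio was smallest for Pnlip, at 1.33 (1.17 to 1.52), and largest for Try5, at 4.13 (3.52 to 4.88), Cela1, at 3.27 (2.90 to 3.68), and Clps, at 2.61 (2.30 to 2.97). Without their high-count cells the knockout tumour cells had 0.987 per cell and the control ones 0.212. That value cannot be set fairly against the 0.884 of knockout leukocyte-like cells, which kept their own high cells, and these stood at 0.519 without their 8 cells of 20 or more. Between the libraries 9 of 10 genes were at least 2-fold higher in knockout than in control tumour cells without high counts, against 4.8% of all genes, with a median log2 ratio of 3.65.

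Plasma-like cells offered a comparison at similar depth, with medians of 14832 and 15290.5 UMIs against 14482 and 15427 in the clusters named tumour-like. There the named tumour-like cells under 1000 enzyme UMIs had 2.40 times (1.64 to 3.64) the enzyme UMIs per cell of plasma-like cells in control and 2.42 times (2.08 to 2.83) in knockout. For Ctrb1 the knockout ratio was 1.82 (1.35 to 2.499), and for Cela1 it was 3.75 (2.36 to 6.34). The level in tumour cells was thus above that of plasma-like cells in both libraries, by a ratio of about the same size, while between leukocyte classes the knockout level itself ranged from 0.341 per B-like cell to 3.97 per NK-like cell with the 821-UMI cell included.

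The make-up of the enzyme UMIs differed between the libraries and between classes. In control tumour cells without high counts Cela1 took 68.8% of them, Try5 7.91%, Clps 6.73%, Ctrb1 4.78% and Prss2 3.95%. In the matching knockout cells Cela1 took 20.9%, Ctrb1 18.7%, Clps 12.8%, Prss2 10.1% and Try5 9.76%. Knockout leukocyte-like cells were led by Ctrb1 at 23.3%, followed by Prss2 at 14.3%, and Cela1 took 10.5%. In control leukocyte-like cells Cela1 took 37.4% of 123 UMIs, and in control fibroblast-like cells 81.3% of 294. In the cells with 1000 or more enzyme UMIs, by contrast, Cela1 took 4.62% in control and 5.56% in knockout, and Ctrb1 took 20.9% and 34.9%. The 10 genes therefore did not keep one ratio across cells, and Cela1 departed most from the proportions of the richest cells.

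**Figure D3:**
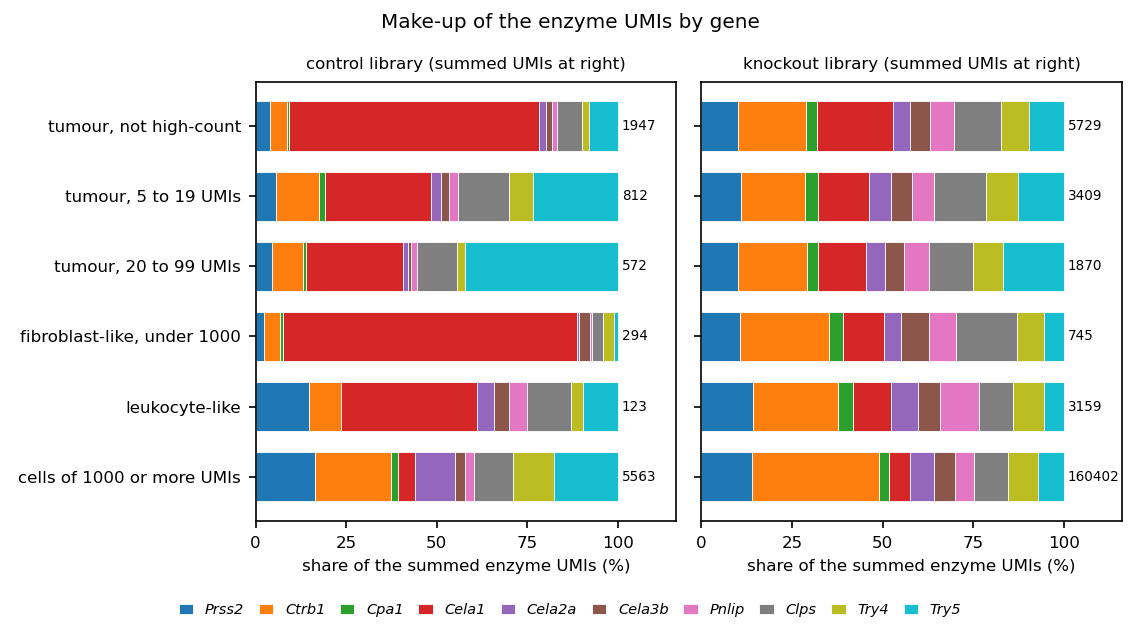
Share of the summed enzyme UMIs (horizontal axis, %) taken by each of the 10 genes (colours) in groups of cells, in the control (left) and knockout (right) library, with the summed UMIs at the end of each bar. Cela1 takes 68.8% of the control bar of tumour cells without high counts and 20.9% of the knockout one.

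Cela1 stood at different levels in different clusters. In cluster 22, led by Lgals4, Rbp2, Gkn1, Spink4 and Gkn2, genes of gut and stomach epithelium, it stood at 92.4 CPM (81.8 to 103.9), with a UMI in 51.9% of 108 control cells, and at 41.2 CPM (27.6 to 59.2) in 22 knockout cells. In the fibroblast-like cluster 17 it stood at 37.1 CPM (32.0 to 42.8), with a UMI in 37.6% of 263 control cells, and at 53.1 CPM (33.3 to 80.4) in 45 knockout cells. In the other fibroblast-like cluster, 6, the control level was 10.0 CPM (7.43 to 13.2). Cluster 17 held 263 of 670 control and 45 of 764 knockout fibroblast-like cells. Within cluster 17 knockout was the higher of the libraries, while fibroblast-like cells under 1000 enzyme UMIs were lower in knockout. The whole fibroblast-like class was higher in knockout, at 239 control and 409 knockout Cela1 UMIs, a CPM ratio of 2.30 (1.96 to 2.71). Of those 409, 324 lay in the 1 cell with 4617 enzyme UMIs. In tumour cluster 1 the control level of Cela1 was 22.4 CPM (20.7 to 24.2) and the knockout level 29.3 CPM (26.2 to 32.7).

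The 14 cells with 1000 or more enzyme UMIs were examined one by one. The 2 control cells had 3209 and 2354, and the 12 knockout cells had 33653, 30174, 29969, 20144, 10348, 8953, 7425, 5208, 4617, 4135, 3704 and 2072. Of the 14, 12 lay in cluster 23, the control cell of 3209 lay in tumour cluster 5, and the knockout cell of 4617 lay in fibroblast-like cluster 6, where it also had 96 Col1a1 UMIs. In 10 of them Pnlip took 4.14% to 8.26% of the enzyme UMIs, and in the other 4 it took 0% to 0.241%. That split, at 1%, was made after the values had been seen.

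The 10 cells with Pnlip all held each of the 10 enzymes, and apart from the cell with 96 Col1a1 UMIs they had few UMIs of the other cell types looked at. Their make-up varied, with Ctrb1 at 14.3% to 42.6% of the enzyme UMIs (median 27.9%), Try4 up to 17.8%, Cela1 1.84% to 9.60% and Try5 1.37% to 11.0% (median 6.04%). Enzymes made up 23.4% to 61.6% of all UMIs in the cell, with a median of 55.3%. Their Epcam counts were 0 to 4, Ptprc 0 or 1, Hmga2 0 or 1 and Sox9 0 or 1. They also held 47 to 2493 UMIs of Reg1, a secreted protein of acinar cells.

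The 4 cells without appreciable Pnlip had a different set. Cela1 took 0% to 0.637% of their enzyme UMIs and Try5 15.9% to 46.3% (median 24.5%), while Try4 took 0.193% to 4.49%. Enzymes were 1.76% to 17.8% of all UMIs in the cell, at depths of 15849 to 118042. Each had Ptf1a, the transcription factor that holds acinar identity, at 1 to 9 UMIs, and its partner Rbpjl at 1 to 6. The 10 cells with Pnlip had 0 to 4 UMIs of Ptf1a and 0 to 8 of Rbpjl, so these factors were not particular to the 4. In the 4 cells Epcam ranged from 2 to 200 and Reg1 from 573 to 3570. The deepest, of 118042 UMIs, had 200 Epcam and 79 Krt19 UMIs, markers of epithelium and ducts. Its depth is far above the median, and whether it held more than 1 cell was not tested.

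**Figure D4:**
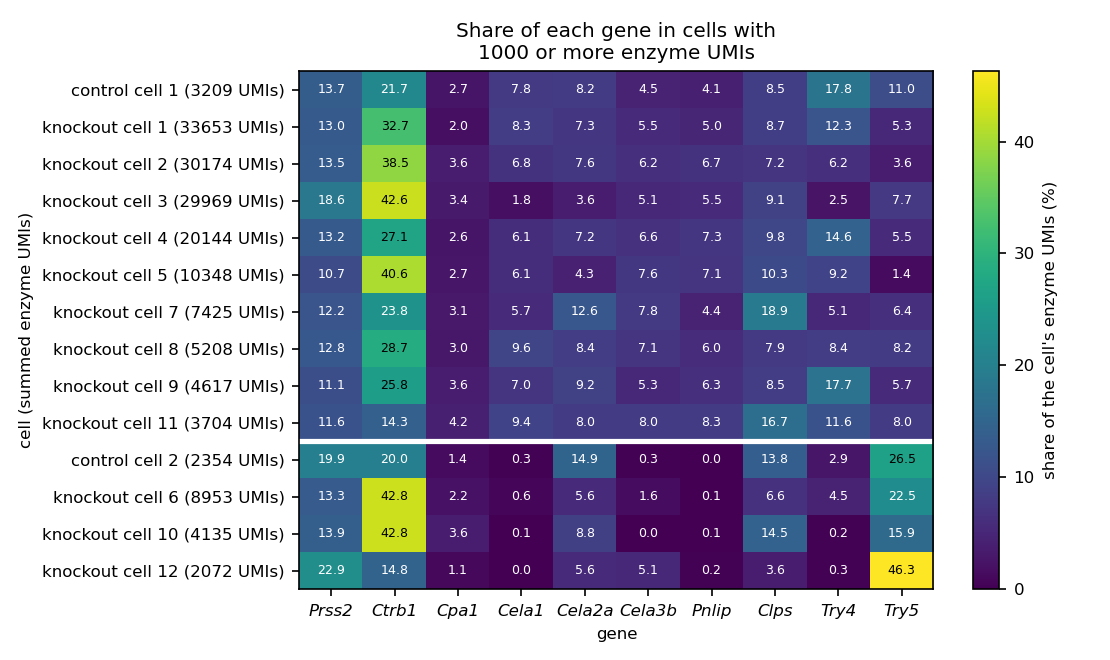
Share of each of the 10 genes in the enzyme UMIs (colour and printed value, %) of the 14 cells with 1000 or more of them, 1 row per cell with its summed UMIs. The white line parts the 10 cells with Pnlip at 4.14% or more from the 4 at 0.241% or less, in which Cela1 is also below 0.637% or equal to it.

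The rest of cluster 23 had more enzyme RNA than other tumour cells and far less than the richest cells. Its 43 control cells under 1000 had 241 enzyme UMIs, or 345 CPM (303 to 391), with a highest cell of 58. Its 53 knockout cells had 518, or 359 CPM (329 to 391), with a highest cell of 267. The ratio of CPM was 1.04 (0.892 to 1.22) and that of UMIs per cell 1.74 (1.49 to 2.04), where all tumour cells under 1000 had a CPM ratio of 3.89. Since 267 of the 518 knockout UMIs lay in 1 cell, that cell weighed heavily on both ratios. Neither was computed without it. The genes differed within it: Clps had 53 control and 29 knockout UMIs, a CPM ratio of 0.265 (0.162 to 0.424), and Cela1 had 71 and 222, a ratio of 1.51 (1.15 to 2.01). These cells had 14.9 and 35.5 Epcam UMIs per cell, 10.3 and 23.2 of Ttr and 10.0 and 11.8 of the ductal factor Sox9. The ductal gene Krt19 was lower than over all tumour cells under 1000, at 12.4 and 11.6 per cell against 32.0 and 34.8. Of acinar factors, Ptf1a had 0 UMIs in both libraries, Rbpjl 4 control and 7 knockout UMIs, and Bhlha15 0 and 11. Reg1 had 33 and 3611 UMIs. The other tumour cells were far poorer in Epcam. All tumour cells under 1000, cluster 23 included, had 1017 control and 1978 knockout Epcam UMIs, or 0.107 and 0.325 per cell. Of these UMIs 642 control and 1884 knockout ones lay in cluster 23.

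Some cells held one enzyme gene almost alone. Among cells with at least 5 enzyme UMIs, 54 of 128 in control (42.2%) and 38 of 576 in knockout (6.60%) had at least 90% of them from 1 gene, a rule set after the counts had been seen. Try5 was that gene in 24 control cells, all tumour cells, with 500 Try5 UMIs in all, a median of 11.5 and a highest of 113, and with 0 Try4 and 0 Prss2 UMIs. In knockout it was that gene in 26 tumour cells and 1 plasma-like cell, with 445 Try5 UMIs, 1 Try4, 2 Prss2 and 5 Ctrb1. Clusters 3 and 8, whose leading genes include Tnnt2 and Hmga2, held the most of these cells, 6 control and 11 knockout in cluster 3, and 5 and 9 in cluster 8. Try5 thus occurred without the trypsinogen closest to it in sequence. In contrast, no tumour cell under 1000 enzyme UMIs that had 5 or more Ctrb1 UMIs, 8 in control and 50 in knockout, had the other 9 genes at 0.

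Cela1 was the lone gene in 28 control cells, 22 of them tumour cells and 6 fibroblast-like, with 310 Cela1 UMIs and a highest of 67. Cluster 22 held 11 of these, cluster 1 held 9 and cluster 17 held 5. In knockout 6 cells had Cela1 alone, with 40 UMIs. Clps was alone in 1 cell of each library, with 30 and 27 UMIs. Prss2 was alone in 5 cells, all T-like, and none of the other 6 genes was alone in any cell.

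**Figure D5:**
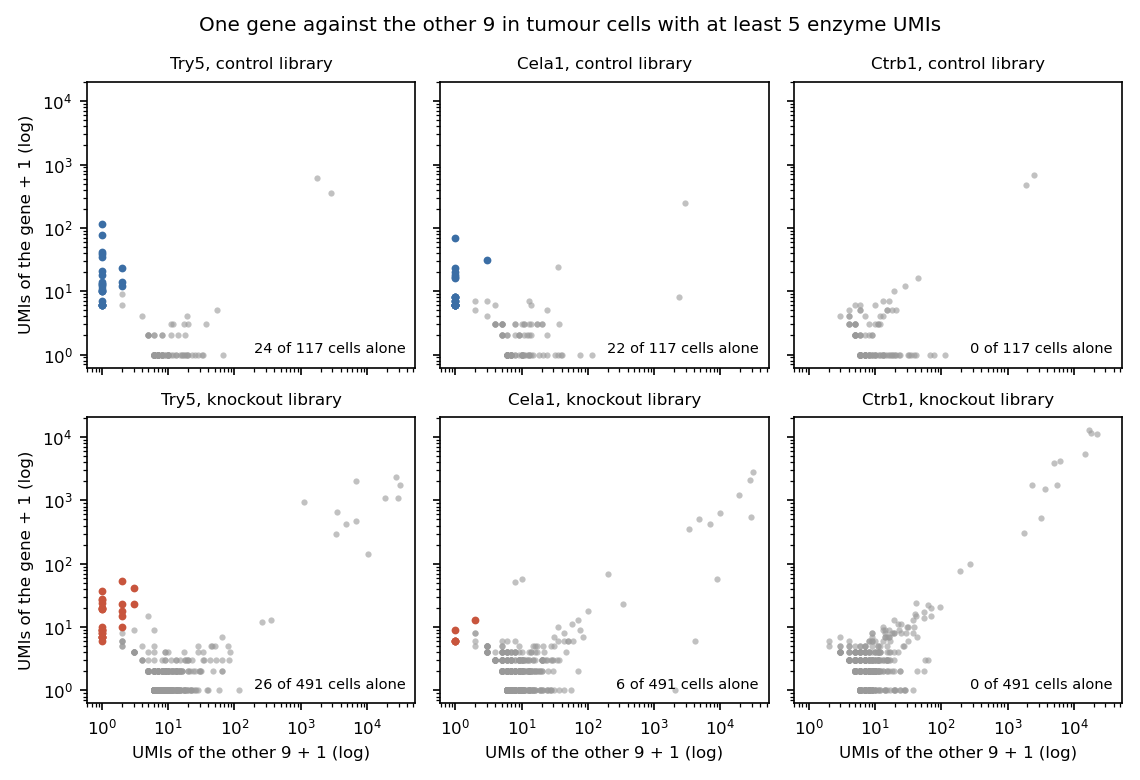
UMIs of Try5, Cela1 or Ctrb1 (vertical axis, log scale, plus 1) against those of the other 9 genes (horizontal axis, log scale, plus 1) in each tumour cell with at least 5 enzyme UMIs, control above and knockout below; coloured points are cells in which the gene makes up at least 90%. Try5 stands alone in 24 of 117 control and 26 of 491 knockout cells, and Ctrb1 in none.

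Prss2 was the lone enzyme gene in a few T-like cells. This was so in 1 control cell with 5 Prss2 UMIs and in 4 knockout cells with 38 in all, from 5 to 12 each. All 5 cells also had UMIs of a T cell receptor beta constant gene. Of the 4 knockout cells 3 lay in leukocyte sub-cluster 7 and 1 in sub-cluster 0. The trypsinogen genes lie inside the T cell receptor beta locus, which spans chr6:40891229-41558452 on GRCm38. Try4 and Try5 follow the variable segment Trbv30, Try4 starting 20278 bases after it, and Prss2 ends 8121 bases before the diversity segment Trbd1. Whether these UMIs came from Prss2 transcripts or from transcripts of the receptor locus was not tested.

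Other genes of the acinar programme were followed in lists. Of 28 further acinar secretory proteins, 16 had enough UMIs in tumour cells under 1000 enzyme UMIs, and 12 of those were at least 2-fold higher and 2 at least 2-fold lower in knockout, with a median log2 ratio of 2.91. Among the 4 with the most UMIs, Dmbt1, a mucosal scavenger protein, had 11384 control and 2227 knockout UMIs (log2 ratio -1.80), and Sycn, a granule membrane protein, had 1358 and 289 (-1.68). High-count cells held 1278 of these control and 121 of these knockout Sycn UMIs. In tumour cells without high counts Sycn was higher in knockout, at 0.558 CPM in control and 1.74 in knockout. Amy1, an amylase, had 630 and 384 (-0.16), and Zg16, a lectin of the granule, had 70 and 523 (3.44). In all tested genes of these cells 4.79% were 2-fold higher and 2.69% lower. Of the 4 most abundant of the list, 3 had a ratio below 0 on the log2 scale, against its median. Of the 7 Reg genes 5 were tested, and 3 were higher and 1 lower. Reg1 had 2095 and 5917 UMIs (log2 ratio 2.05), Reg3b 678 and 2775 (2.58), Reg3g 589 and 169 (-1.24) and Reg2 28 and 67 (1.78). Of the Reg1 UMIs 33 control and 3611 knockout ones lay in the 43 and 53 cells of cluster 23 under 1000.

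The regulators and the secretory apparatus of acinar cells lay near the level of all genes, with medians between -0.27 and 0.25. Of 10 acinar transcription factors 7 were tested in tumour cells under 1000, and 1 was 2-fold higher, against the same 4.79% of all genes: Rbpjl, with 9 control and 20 knockout UMIs. Xbp1 stood at a log2 ratio of -0.43, Gata4 at -0.14, Gata6 at -0.04 and Nr5a2 at 0.54, and Ptf1a had 0 and 1 UMIs. Of 16 genes of the endoplasmic reticulum and granule apparatus 14 were tested, 2 were higher, Pdia2 and Cckar, and none lower, with a median of -0.27. The 4 with the most UMIs were Hspa5 (-0.52), Pdia6 (-0.27), Vamp8 (-0.23) and Sec61b (-0.30). Of 14 ductal genes 1 was higher, Cldn4, and 1 lower, Krt7, with a median of -0.10. Those with the most UMIs were Spp1 (-0.86), Krt19 (0.03), Bicc1 (-0.35) and Onecut2 (-0.45). In the 12 knockout cells with 1000 or more enzyme UMIs Ptf1a had 24 UMIs in 7 cells, Rbpjl 31 in 8 and Bhlha15 14 in 7, so these factors were present there at low counts.

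Islet hormone genes, like the enzymes, were higher in knockout tumour cells. The 4 of 6 that had enough UMIs were all at least 2-fold higher in knockout, against 4.79% of 17449 genes, with a median log2 ratio of 2.43. Ins2 had 24130 control and 90825 knockout UMIs in tumour cells under 1000 enzyme UMIs, Ins1 had 13160 and 35778, Iapp 1588 and 6529 and Gcg 504 and 1802, while Sst had 0 and 0 and Ppy 1 and 3. The 6 hormones summed to 261 and 1313 CPM there, and in leukocyte-like cells to 35 UMIs, or 5.15 CPM, in control and 452 UMIs, or 24.8 CPM, in knockout. They were nearly absent from the cells richest in enzymes: Ins2 had 0 UMIs in the 2 control and 4 in the 12 knockout cells. Their part in the result, and that of the amount of normal pancreas in each pool, was not tested. In such pooled libraries, more enzyme RNA per droplet and more captured acinar cells cannot be told apart by the sums alone.

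Outside the 10 genes, those most like their sum were mostly other acinar products. Across 25 groups of class and library with at least 30 cells, the Pearson correlation of log2(CPM + 10) with the summed enzymes was 0.973 for the trypsinogen-like gene 2210010C04Rik, 0.943 for Ctrl, 0.940 for Rnase1, 0.939 for Cpb1, 0.936 for Zg16, 0.931 for Pnliprp1, 0.929 for Cel, 0.884 for Reg1 and 0.880 for Elmo3, which is no acinar product and reached at most 15.3 CPM. The groups of one library share its depth and free RNA, and each of these genes was highest in knockout cluster 23. The 10 enzymes themselves ran from 0.893 for Pnlip to 0.989 for Ctrb1.

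High-count tumour cells differed from other tumour cells by 2 different sets of genes, depending on whether the richest cells were in. With them, the genes furthest above other tumour cells in both libraries included Pnliprp1 (log2 ratio 9.16 in control and 9.78 in knockout), Sycn (8.35 and 8.45) and Rnase1 (8.20 and 8.54), followed by Spink1, Klk1, Pgc, Cpb1, 2210010C04Rik and Zg16. Without the cells of 1000 or more they were led by Pgc (9.12 and 7.64), Muc6 (6.77 and 6.0), Gkn3 (10.5 and 5.41) and Pigr (5.94 and 4.32), stomach and mucosal genes, followed by Reg3b, Gpx2, Ly6d, Sycn, Wfdc2 and Tff2. The lowest in both were Ins1, Ins2, Iapp, Gcg and Hba-a2. Enzyme counts chose these cells, so the ratios describe them and test nothing.

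The promoters of the enzyme genes were searched for the letters of both boxes bound by the acinar PTF1 complex of Ptf1a and Rbpjl, CACCTG and TTCCCA, on both strands. RefSeq promoter entries on GRCm38.p6, from 250 bases before to 50 after the start, were matched for 8 of 10 genes. CACCTG occurred in 5 of 8, against 20.2% of 32851 promoters, and TTCCCA in 5 of 8, against 25.6%. None of the 8 had both of these exact sequences with starts within 25 bases, which 1.15% of all promoters did. Boxes with other letters were not searched, so this count does not show that a promoter lacks the paired boxes. In the Cela1 promoter ttccct, which differs from TTCCCA in its last letter, follows shortly after CACCTG and was not counted. The gene with the most knockout UMIs, Ctrb1, and the gene that departed from the rest, Cela1, are printed on their own strand with these letters in capitals, for chr8:111690961-111691260 and chr15:100687871-100688170, both on the minus strand.
Ctrb1: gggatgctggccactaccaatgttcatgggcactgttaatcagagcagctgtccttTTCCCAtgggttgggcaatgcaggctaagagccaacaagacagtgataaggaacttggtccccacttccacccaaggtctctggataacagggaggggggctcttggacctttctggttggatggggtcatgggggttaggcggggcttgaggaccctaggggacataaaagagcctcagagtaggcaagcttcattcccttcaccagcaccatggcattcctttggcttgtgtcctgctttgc
Cela1: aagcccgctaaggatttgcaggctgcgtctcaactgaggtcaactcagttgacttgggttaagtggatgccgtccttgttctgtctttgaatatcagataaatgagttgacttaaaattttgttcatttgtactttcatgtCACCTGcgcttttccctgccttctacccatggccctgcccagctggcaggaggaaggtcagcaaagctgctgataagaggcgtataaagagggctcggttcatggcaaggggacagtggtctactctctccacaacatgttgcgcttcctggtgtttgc
In Ctrb1 the TTCCCA begins at position -194 from the start, and in Cela1 the CACCTG begins at position -109. A match is a description of these letters and says nothing about binding.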

How the data were processed

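Counts of UMIs per gene and cell barcode were deposited by the authors without normalisation, from 10x 3′ libraries; the file headers name Cell Ranger 8.0.0 and the submitters' processing notes Cell Ranger 3.1.3 and mm10. Per the file headers each table lists 32285 genes. Of their identifiers 32235 matched GENCODE M21 (GRCm38), which gave positions.

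Barcodes under 500 genes or over 15% mitochondrial UMIs were dropped (11664 and 10808 passed), and Scrublet doublets (expected rate 0.08) were removed, 148 (1.27%) in control and 341 (3.16%) in knockout. Counts were normalised to 10000 per cell, logged and scaled (maximum 10). With 41 acinar genes left out, the 2000 most variable of the other genes were used for clustering. Their 30 components, 15 neighbours and Leiden resolution 1 (2 iterations, seed 0) gave clusters, named "-like" from markers of 21 classes. Leukocytes were clustered again. The scores for naming were set after clusters had been seen. Clusters came from scanpy 1.11.5 with leidenalg 0.10.2 and igraph 0.11.9, intervals from scipy 1.17.1, and tables from pandas 2.3.3 under python 3.11.15; numpy 2.4.6, scikit-learn 1.9.0, anndata 0.12.19, biopython 1.88 and matplotlib 3.10.9 were also used.

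UMIs were summed per class and library and given as CPM or per cell. Intervals are exact at 95%: Poisson for sums, conditional for ratios, Clopper-Pearson for shares. Log2 ratios used a pseudocount of 1 UMI and genes with at least 20 UMIs in both libraries together. A count of 0 was taken as 3 counts. For shares, cells were thinned to 1000 UMIs and shallower cells left out. Ratio and interval code was tested on simulated data. UMIs from 1 droplet are not independent of its capture, so intervals cover counting error only.

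The genes and lists were chosen with earlier results of these data known. Named were all 10 enzymes, the 10 genes most correlated with their sum and the 10 highest and 5 lowest in high-count cells (each with at least 100 UMIs), and per list the 4 genes with the most UMIs; other genes were named after their values had been seen. A further gene that the rule names is not reported here.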

Additional observations from a re-analysis of the deposited data

Results flagged for a closer look

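Barcodes that the cell filters left out carried enzyme RNA in knockout. The 1784 knockout barcodes left out held 21349 enzyme UMIs, 11.97 per barcode and 10.9% of all in the table, and the 2250 control barcodes held 234, or 0.104 per barcode. Most lay in 423 knockout barcodes with under 500 genes, which had 18680 enzyme UMIs, or 44.2 per barcode, at a median depth of 683 UMIs. In 33 of those there were 100 or more enzyme UMIs and in 3 there were 1000 or more, up to 2098. The 236 control barcodes of that kind had 5 enzyme UMIs.

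The knockout-to-control ratio of Cela1 was below 1 in fibroblast-like cells under 1000 enzyme UMIs, at 0.480 (0.370 to 0.617), and above 1 in tumour cells under 1000, at 1.31 (1.23 to 1.39), and in leukocyte-like cells, at 2.68 (1.96 to 3.73). The difference was not tested, since each group has 1 library. With the 1 knockout fibroblast-like cell of 4617 enzyme UMIs kept, the fibroblast-like ratio was 2.30 (1.96 to 2.71). Within fibroblast-like cluster 17, which made up 263 of 670 control and 45 of 764 knockout fibroblast-like cells, Cela1 was at 37.1 CPM in control and 53.1 CPM in knockout.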

How the results depend on the processing

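Of 224 values recomputed under another choice, 138 stayed within the counting error of their own value and 86 moved beyond it. No ratio among them changed direction. The Cela1 ratio in fibroblast-like cells did, from 0.480 to 2.30, when the 1 knockout cell with 1000 or more enzyme UMIs was kept. The knockout-to-control ratio of summed enzyme UMIs in tumour cells, 25.4, and in all kept cells, 22.8, moved most when the richest cells were left out: to 6.75 and 6.68 without the 10 cells with the most enzyme UMIs in each library, and to 3.89 and 4.29 without cells of 1000 or more (chosen after seeing the data). It was 36.5 and 32.3 with the strict filter (1000 genes, 10% mitochondrial), 26.4 and 23.7 with the loose one (200 genes, 25%), 24.5 and 22.0 with doublets kept, 28.7 and 25.3 without Prss2, Try4 and Try5, and 27.0 and 19.2 as means per cell. In tumour cells it was 26.2 with all variable genes in the clustering and 24.7 at Leiden resolution 0.5, and over all deposited barcodes it was 24.2. In leukocyte-like cells the 9.57 went to 6.49 with all variable genes. Without Cela1, Try5 and Clps (chosen after seeing the data) the ratios were 41.0 in tumour cells, 17.6 in leukocyte-like and 37.7 in all kept cells.

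The share of high-count tumour cells, 3.09% in control and 4.79% in knockout, was 0.896% and 0.344% with a stricter percentile, which turned the order, 0.474% and 2.77% at 10 UMIs, 0.0316% and 0.230% at 100, 0.0527% and 0.213% at 1% of the cell's UMIs, and 1.22% and 3.15% without Cela1, Try5 and Clps. Without the trypsinogens it was 2.20% in control. The share of cells with an enzyme UMI followed the thinning depth. In control tumour and leukocyte-like cells it was 1.20% and 0.800% at 500 UMIs and 19.95% and 7.20% unthinned, and 4.33% and 3.13% at 2000, so that the order at 1000 UMIs was turned at the other 3 settings. In knockout it was 5.53% and 6.61% at 500, 15.1% and 18.1% at 2000, and 52.7% and 30.9% unthinned, where the order turned. Without the trypsinogens it was 1.82% and 1.41% in control and 7.31% and 9.34% in knockout, and without Cela1, Try5 and Clps 0.615% and 1.57%, and 6.53% and 9.82%. In knockout tumour cells it was 10.3% with the loose and 8.54% with the strict filter, and in knockout leukocyte-like cells 9.81% with the strict one. The Cela1 share of 68.8% and 20.9% became 78.4% and 28.4% without the trypsinogens. With the strict filter the doublet caller marked 0 control cells and had not worked there. No paired analysis was possible because each group has 1 library. Levels near the floor of 3 counts, such as Cpa1 in control leukocyte-like cells, are limited by depth.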
